A study of Mus musculus with 24 samples.

Results

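The 3 libraries labelled Vhl/Rassf1a Cre were compared directly with the 3 labelled Vhl Cre. These are 6 of the 24 RNA sequencing libraries of the series and were picked by their titles, not by any measured value. All libraries came from fibroblasts, connective tissue cells in culture, taken from E13.5 mouse embryos. Both groups are named for an alteration of Vhl, both are named Cre and both are labelled as knockouts, so they differ by name in Rassf1a alone. The libraries named GFP are labelled as controls, and there are 3 of them for each genotype. Vhl/Rassf1a GFP and Vhl GFP (3 each) carry the same genotype names without Cre, and Rassf1a Cre and WT Cre (wild type; 3 each) differ by Rassf1a in cells not named for Vhl. The labels give neither the altered exons, nor how Cre or GFP was delivered, nor the strain, sex or number of embryos behind a genotype. An embryo's background and its genotype cannot be told apart if each genotype came from its own embryos. The 3 libraries of a group may share a culture, in which case p-values measure a spread that is technical. The general design text speaks of kidney tubule cells, while every sample label gives fibroblasts. The labels were followed, and none of 14 fibroblast markers was at 0 in any group.

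The product of Vhl is the subunit by which a ubiquitin ligase recognises hypoxia-inducible factors and sends them to breakdown, and cells without it run the hypoxia response in normal oxygen. Rassf1 encodes a Ras association domain protein. Its long form, Rassf1a, starts from a CpG-rich promoter that is often methylated in tumours, among them those of the kidney, binds microtubules and the Hippo kinases Mst1 and Mst2, and is known for roles in mitosis. Zmynd10, a factor for assembling the dynein motors of cilia, lies just before Rassf1 on the same strand.

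Levels are CPM (deposited counts scaled by library size), and fold changes are Vhl/Rassf1a Cre over Vhl Cre on the log2 scale with a standard error (SE). A gene was called where its p-value, adjusted over all 16573 genes tested, was under 0.05. In bulk RNA, more cells of a kind and more RNA per cell cannot be told apart. Library totals were 35.0 to 43.2 M counts in Vhl Cre and 34.7 to 53.2 M in Vhl/Rassf1a Cre. Replicates of these groups correlated at 0.994 to 0.995 across genes (log2 CPM), and no pair was within sampling noise. One library used only for comparison, Vhl/Rassf1a GFP replicate 2, stood apart from the other 2 of its group, with a deviation that followed the GC content of genes (r = 0.753 across 12905 genes).

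The Vhl transcript was low in both groups. It stood at 2.54, 2.34 and 2.85 CPM in Vhl Cre and 1.81, 2.70 and 1.77 in Vhl/Rassf1a Cre, against 25.7, 27.6 and 26.8 and 20.8, 21.3 and 23.8 in their GFP libraries. The Cre values overlapped between the groups and did not pass the test (log2 fold change -0.32, SE 0.13, adjusted p = 0.0983). Without Vhl/Rassf1a Cre replicate 2, the highest of its group, the difference was -0.51 with an adjusted p of 0.00382. Rassf1 itself, counted over every form of the gene, did not pass the test, with 42.6, 44.0 and 44.6 CPM in Vhl Cre and 42.8, 45.7 and 46.9 in Vhl/Rassf1a Cre (log2 fold change 0.05, SE 0.09, adjusted p = 0.798). A gene count takes in exons outside the altered part, so it does not check the label.

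The stretch before the first start of Rassf1 shows how close Zmynd10 lies to it, and is given here because Zmynd10 is the marker of this comparison. It is GRCm38.p6, chr9:107551305-107551554, plus strand, from RefSeq, with the last 15 annotated bases of Zmynd10 (chr9:107547298-107551319) in capitals and Rassf1 (chr9:107551555-107562267) beginning at the next base after it.
Rassf1: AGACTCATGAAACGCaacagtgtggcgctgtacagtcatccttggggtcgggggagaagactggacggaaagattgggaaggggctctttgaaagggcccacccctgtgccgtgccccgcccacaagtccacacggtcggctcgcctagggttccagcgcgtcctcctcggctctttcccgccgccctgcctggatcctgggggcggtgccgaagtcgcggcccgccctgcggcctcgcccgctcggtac
Annotation leaves 235 bases between the end of Zmynd10 and the start of Rassf1.

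Zmynd10 was higher in Vhl/Rassf1a Cre, at 1.15, 1.03 and 0.951 CPM against 0.355, 0.398 and 0.288 in Vhl Cre (log2 fold change 1.58, SE 0.30, adjusted p = 0.000504). Those values rest on 36 to 61 reads against 10 to 17. It also stood at 1.26, 0.949 and 1.39 CPM in Rassf1a Cre against 0.171, 0.338 and 0.111 in WT Cre (2.51, SE 0.33, adjusted p = 8.83e-06). In Vhl/Rassf1a GFP it was at 0.299, 0.280 and 0.250 CPM and in Vhl GFP at 0.290, 0.181 and 0.235 (0.24, SE 0.41, adjusted p = 0.724). So the 6 libraries with both a Rassf1a name and Cre had the 6 highest values of the 24, as the plot of levels by library shows. The Cre effect in Vhl/Rassf1a cells minus that in Vhl cells was 1.34 (SE 0.52, adjusted p = 0.15), which did not pass. Of 16 tested genes for motile cilia and dynein assembly, Zmynd10 was higher and Spag1 lower (named after its value was known), 6.25% each against 9.75% and 9.07% of all genes.

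**Figure D1:**
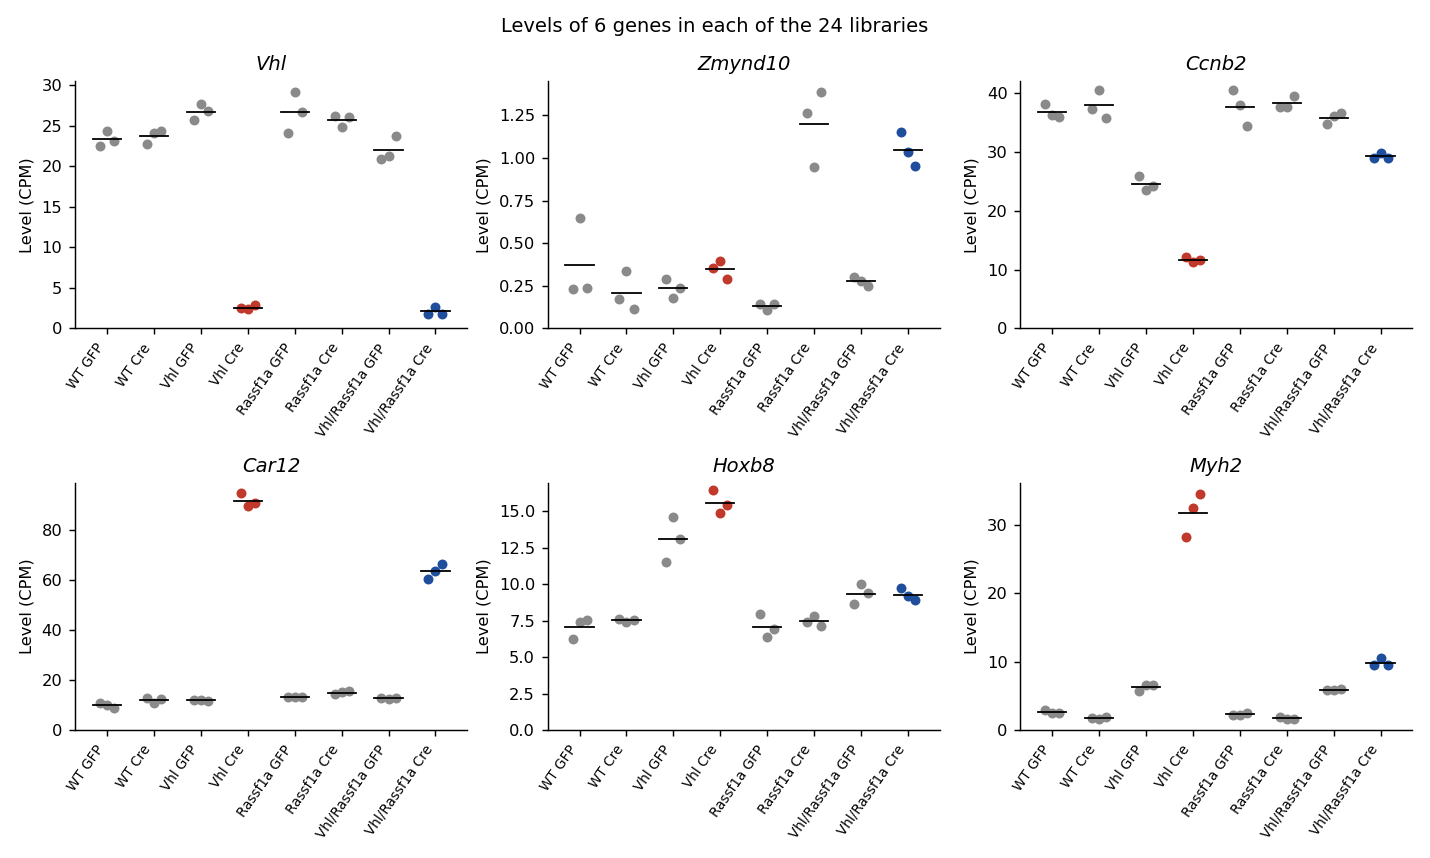
Levels (CPM, linear axes from 0) of 6 genes in each of the 24 libraries; points are libraries, black lines group means, with Vhl Cre in red, Vhl/Rassf1a Cre in blue and other groups in grey. Vhl is low in both coloured groups, Zmynd10 is high in Rassf1a Cre and Vhl/Rassf1a Cre, and Myh2 is high in Vhl Cre.

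Between the Cre libraries 3119 of 16573 genes were called (18.8%), with 1616 higher (9.75%) and 1503 lower (9.07%) in Vhl/Rassf1a Cre. At least 2-fold changes were 206 of the higher and 212 of the lower. The median over all genes was 0.00 on the log2 scale. The values of the 3 and 3 libraries did not overlap for 40.7% of genes. A fit of only these 6 libraries called 4754.

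Cell division genes gave the most uniform change. All 35 tested mitosis and spindle genes were higher in Vhl/Rassf1a Cre, against 9.75% of all genes, with log2 fold changes from 0.52 (Incenp) to 1.32 (Ccnb2) and a median of 0.93. Their 3 and 3 values did not overlap for any member, against 40.7% of all genes without overlap. The count was 35 in every alternative run, each library left out included. Ccnb2, a cyclin that brings cells into mitosis, stood at 29.1, 29.8 and 29.0 CPM in Vhl/Rassf1a Cre and 12.1, 11.4 and 11.6 in Vhl Cre (log2 fold change 1.32, SE 0.06, adjusted p = 4.41e-13). Cenpa, the histone that marks centromeres, was at 36.4, 35.8 and 35.2 CPM against 15.9, 14.0 and 16.8 (1.2, SE 0.06). Anln, a scaffold of the cleavage furrow, stood at 166, 176 and 163 against 82.2, 72.0 and 80.8 CPM (1.10, SE 0.05). Each of these genes was at least 2-fold higher, with replicates within a narrow band. Prc1, which bundles microtubules of the central spindle, was at 105, 113 and 108 against 55.4, 54.0 and 55.6 CPM (0.98, SE 0.05). Ttk, the kinase at the head of the spindle checkpoint, was at 16.4, 17.5 and 16.3 against 7.38, 6.36 and 6.93 CPM (1.28, SE 0.09).

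The same 35 genes were examined where no library is shared. In Vhl/Rassf1a GFP against Vhl GFP 34 were higher and 0 lower, where 26.9% of all genes were called (13.2% higher), and the median was 0.40. Spc25, chosen after its values were seen, was the 1 not called. In Rassf1a Cre against WT Cre, where 12.4% of genes were called (7.09% higher), 1 was higher (Ttk) and 6 were lower, with a median of -0.08. The Cre effect in Vhl/Rassf1a cells minus that in Vhl cells was called above 0 in 29 and below 0 in 0 of the 35, against 6.09% of all genes called (3.44% above 0 and 2.65% below), with a median of 0.51. That comparison takes its Cre side from the same 6 libraries, so it is not a separate observation. Without Vhl/Rassf1a GFP replicate 2 these counts were 35 between GFP libraries and 27 for the difference of Cre effects. With Cre against GFP inside each genotype the median member was at -0.80 in Vhl and -0.28 in Vhl/Rassf1a cells. Ccnb2 shows the order: Vhl Cre lowest at a mean of 11.7 CPM, then Vhl GFP at 24.6, Vhl/Rassf1a Cre at 29.3 and Vhl/Rassf1a GFP at 35.9, with SDs of 0.369, 1.25, 0.456 and 1.02 (n = 3 each). The 12 values do not overlap from one group to the next. The 12 libraries not named for Vhl held 34.5 to 40.7 CPM, so Vhl Cre is the lowest group of the series for this gene.

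**Figure D2:**
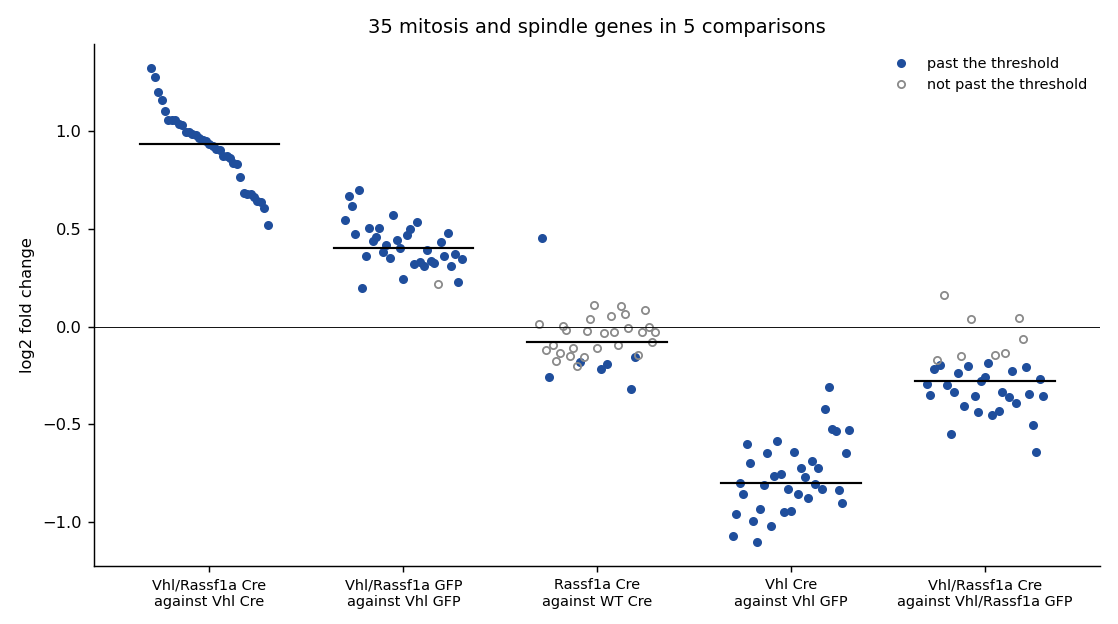
Log2 fold changes of the 35 mitosis and spindle genes (points, in the same order within each column) in 5 comparisons; filled points passed the threshold and black lines are medians. All points of the first column lie above 0, with a median of 0.93, and those of the third lie near 0, with a median of -0.08.

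Promoters of late cell cycle genes are known for a cell cycle genes homology region (CHR, TTTGAA) near the start, with CCAAT boxes before it. Because the list moved as 1 block, promoters of 3 members are shown, each from 250 bases before to 30 after the RefSeq start in GRCm38.p6, with matches on either strand in capitals (TTTGAA or TTCAAA, and CCAAT or ATTGG). They are Ccnb2 (chr9:70421525-70421804, minus strand), Prc1 (chr7:80294201-80294480, plus) and Ttk (chr9:83834439-83834718, plus).
Ccnb2: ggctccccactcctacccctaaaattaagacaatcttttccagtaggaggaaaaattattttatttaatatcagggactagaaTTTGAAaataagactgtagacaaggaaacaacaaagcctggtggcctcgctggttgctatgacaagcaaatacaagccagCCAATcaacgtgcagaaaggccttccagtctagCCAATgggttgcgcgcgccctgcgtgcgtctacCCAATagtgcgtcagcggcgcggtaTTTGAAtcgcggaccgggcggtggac
Prc1: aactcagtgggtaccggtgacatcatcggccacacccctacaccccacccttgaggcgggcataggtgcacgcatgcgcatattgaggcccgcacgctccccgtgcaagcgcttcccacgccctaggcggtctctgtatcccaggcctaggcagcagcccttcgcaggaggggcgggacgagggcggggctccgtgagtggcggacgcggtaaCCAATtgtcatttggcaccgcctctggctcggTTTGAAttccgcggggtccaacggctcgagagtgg
Ttk: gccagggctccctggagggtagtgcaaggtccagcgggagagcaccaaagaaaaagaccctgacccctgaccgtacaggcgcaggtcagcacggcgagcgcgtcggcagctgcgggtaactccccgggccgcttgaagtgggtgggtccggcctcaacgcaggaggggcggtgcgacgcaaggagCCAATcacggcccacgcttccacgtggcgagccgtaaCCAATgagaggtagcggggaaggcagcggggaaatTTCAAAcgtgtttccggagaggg
No matches overlap in these sequences. The 3 were picked by hand, and each holds both kinds of match, which not every member of the list does. In the 300 bases from 250 before to 50 after the start, TTTGAA was found in 22 of 29 promoters matched to the mitosis list (75.9%) and in 11.8% of 11564 promoters of tested genes. CCAAT was found in 22 of the 29 (75.9%) and in 38.2% of all. Both occurred in 19 of the 29 (65.5%) and 4.89% of all. Over the 1159 promoters of genes called higher in Vhl/Rassf1a Cre the shares were 17.7% for TTTGAA and 43.6% for CCAAT. Of 24 DNA replication promoters, 12.5% held TTTGAA and 70.8% held CCAAT. A match is a description of letters and no evidence of binding.

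Many DNA replication and repair genes were called higher, with smaller medians. Of 30 replication genes 22 were higher (73.3%, against 9.75% of all genes) and 0 lower in Vhl/Rassf1a Cre (median 0.30), and 22 and 0 between the GFP libraries (median 0.29). Their median difference of Cre effects was -0.01. Mcm10, which acts in the start of replication, was at 11.9, 12.1 and 12.2 against 7.94, 8.23 and 8.54 CPM (0.55, SE 0.07), and at 0.53 (SE 0.07) between GFP libraries. Uhrf1, which carries DNA methylation through replication, was at 0.53 (SE 0.08) and 0.52 (SE 0.08) in the same comparisons. The subunits of ribonucleotide reductase, Rrm1 and Rrm2, were at 0.34 (SE 0.06) and 0.32 (SE 0.05). Of 35 DNA repair and damage checkpoint genes 17 were higher (48.6%) and 0 lower (median 0.27), also 17 and 0 between GFP libraries. The Fanconi anaemia genes Fancd2 and Fanci, which act at crosslinks, were at 0.74 (SE 0.09) and 0.85 (SE 0.10). Fanci stood at 6.67, 6.35 and 6.97 CPM in Vhl/Rassf1a Cre and 3.52, 3.30 and 4.34 in Vhl Cre, with no overlap. Mdc1, an adaptor at DNA breaks, was at 0.36 (SE 0.05).

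Of 28 targets of p53, 7 were higher (25%, against 9.75% of all genes) and 3 lower (10.7%, near the 9.07% of all genes; Cdkn2a, Fas and Xpc, chosen after their values were seen). Without Vhl Cre replicate 3 the higher count was 4, and the lower count was 1 without Vhl Cre replicate 2, Vhl/Rassf1a Cre replicate 2 or Vhl/Rassf1a Cre replicate 3. Pmaip1, which promotes cell death at mitochondria, was at 75.1, 76.8 and 76.2 against 49.6, 48.3 and 46.9 CPM (0.66, SE 0.10). Mdm2, the ligase that turns over p53, was at 326, 330.1 and 328 against 278, 282 and 273 CPM (0.24, SE 0.05), and Btg2, a brake on proliferation, at 0.32 (SE 0.05). All 3 genes were called the other way in Rassf1a Cre against WT Cre, at -0.56, -0.34 and -0.24.

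The hypoxia response, which loss of Vhl switches on, was on in both groups, and levels of some of its genes were a little lower in Vhl/Rassf1a Cre. Of 34 hypoxia-responsive genes outside glycolysis 3 were higher (Ddit4, Apln and Tfrc, chosen after their values were seen) and 9 lower (26.5%, against 9.07% of all genes), with a median of -0.10. The counts were 7 and 15 with only the groups compared, and 6 and 12 with GC-corrected offsets. Between the GFP libraries 7 were higher and 14 lower (13.2% and 13.6% of all genes), with a median of -0.14. The median Cre effect of the 34 was 1.83 in Vhl and 1.89 in Vhl/Rassf1a cells, with a median difference of 0.0. That difference was called above 0 in 2 genes and below 0 in 6 (3.44% and 2.65% of all genes). Car12, a carbonic anhydrase of the cell surface, stood at 94.6, 89.6 and 90.9 CPM in Vhl Cre and 60.5, 63.7 and 66.2 in Vhl/Rassf1a Cre (log2 fold change -0.53, SE 0.06, adjusted p = 3.44e-07), against 11.6 to 12.9 CPM in the GFP libraries of both genotypes. Its Cre effect was 2.95 in Vhl and 2.32 in Vhl/Rassf1a cells. Car9, its close relative, chosen after its values were seen, was at 68.1, 68.3 and 68.0 against 49.2, 54.4 and 53.3 CPM (-0.38, SE 0.10, adjusted p = 0.00592). P4ha2, which hydroxylates collagen, was at 709, 757 and 746 against 541, 544 and 574 CPM (-0.42, SE 0.05), and Vegfa, the main signal for vessel growth, at 351, 354 and 369.9 against 271, 273 and 289 (-0.37, SE 0.05). Both were also called lower between the GFP libraries, at -0.28 and -0.31, where Car12 was at 0.09 (adjusted p = 0.34). Angptl4, a secreted inhibitor of lipoprotein lipase, was at -0.57 (SE 0.08) with Cre and -1.12 (SE 0.08) with GFP. Its Cre effect was -0.13 in Vhl cells, which did not pass, and 0.42 in Vhl/Rassf1a cells.

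Glucose transport and glycolysis genes stayed within narrow bounds, from -0.18 to 0.18 over 22 members, while their median Cre effect was 1.17 in Vhl and 1.2 in Vhl/Rassf1a cells. Called were 1 higher (4.55%) and 2 lower (9.09%), no more than the 9.75% and 9.07% of all genes. The higher count was 3 without the filter, 5 with only the groups compared and 6 with GC-corrected offsets, and the lower count was 0 without the filter. The 3 were Ldha, lactate dehydrogenase (0.18, SE 0.06, adjusted p = 0.0275), Hk2, hexokinase (-0.18, SE 0.05, adjusted p = 0.0142), and Pfkp, phosphofructokinase (-0.16, SE 0.05, adjusted p = 0.016). Each call was lost without at least 1 library, and those of Hk2 and Pfkp also without the filter (adjusted p = 0.0698 and 0.12), as given in the closing section. Of 14 genes of the HIF pathway itself the 1 called was Arnt2, a partner subunit of hypoxia-inducible factors (-0.26, SE 0.08, adjusted p = 0.0208). It was lost without Vhl Cre replicate 1 (adjusted p = 0.101), Vhl/Rassf1a Cre replicate 1 (0.0538), Vhl/Rassf1a Cre replicate 3 (0.0797) or the filter (0.0544).

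**Figure D3:**
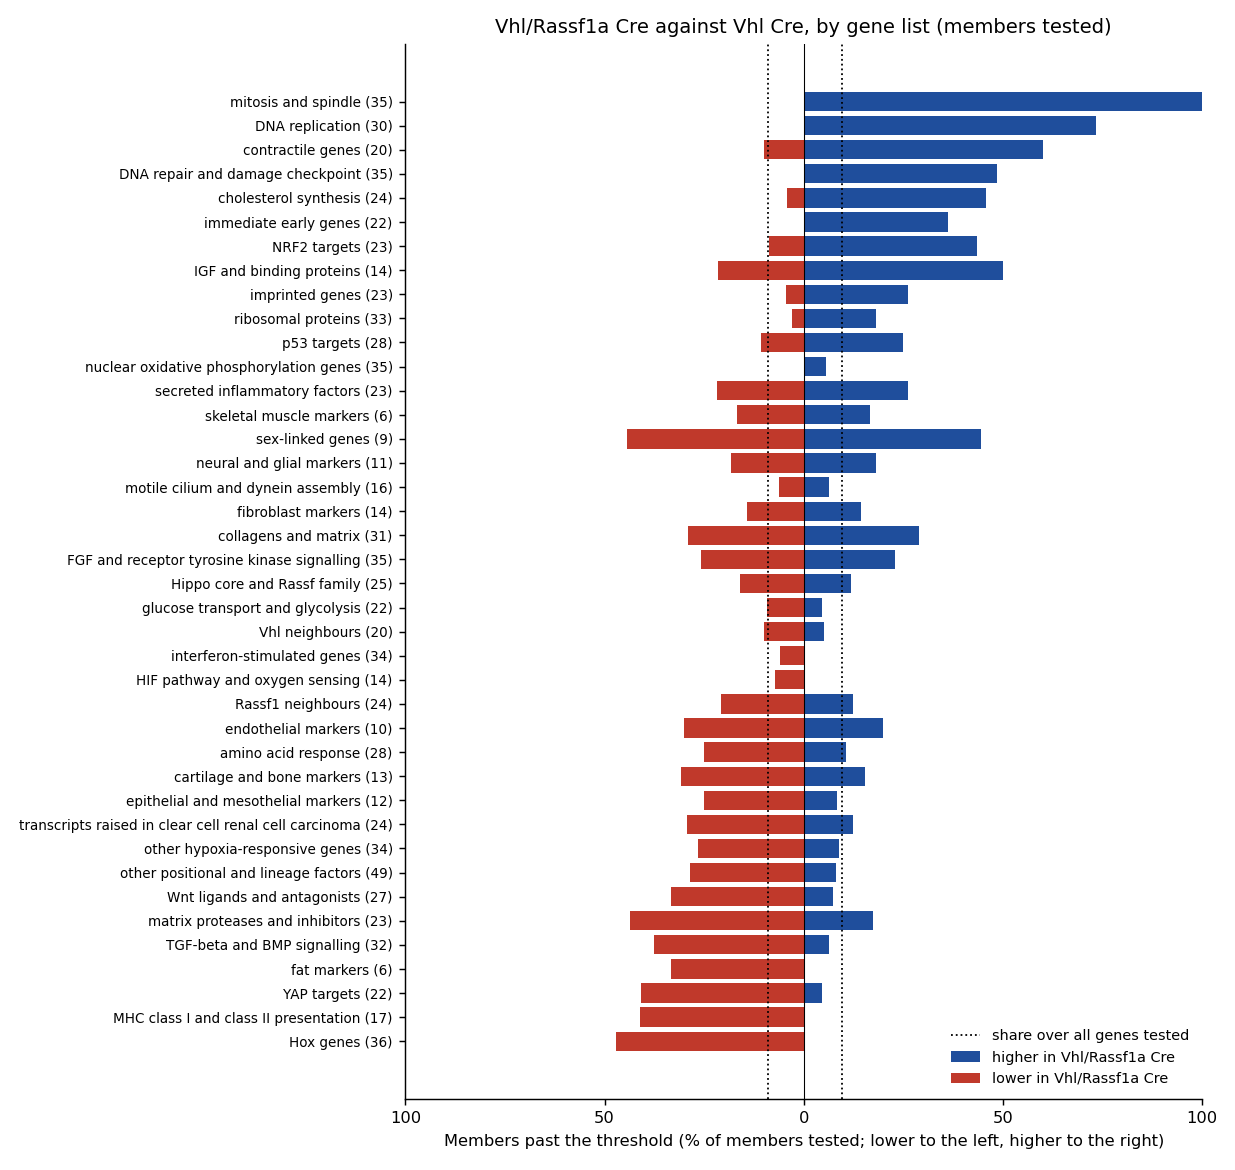
Share of tested members called higher (blue, to the right) or lower (red, to the left) in Vhl/Rassf1a Cre against Vhl Cre for gene lists with at least 5 tested members, whose numbers stand in brackets; dotted lines give the shares over all genes, 9.75% and 9.07%. Mitosis and spindle genes reach 100% higher, and Hox genes are called lower only.

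Hox genes were called lower far more often than higher. Hox genes keep a record of a cell's place along the body. Of 36 tested, 0 were higher and 17 lower in Vhl/Rassf1a Cre (47.2%, against 9.07%), with 0 and 20 between GFP libraries (13.6% of all genes lower) and a median difference of Cre effects of 0.04. Without Vhl/Rassf1a Cre replicate 2, 1 Hox gene was called higher. In Rassf1a Cre against WT Cre 3 were lower, where 5.3% of genes were. Hoxb8 stood at 16.5, 14.9 and 15.4 CPM in Vhl Cre and 9.73, 9.19 and 8.96 in Vhl/Rassf1a Cre (log2 fold change -0.74, SE 0.09, adjusted p = 2.08e-06). Hoxb6 was at 24.6, 23.4 and 24.7 against 14.9, 14.8 and 15.6 CPM (-0.68, SE 0.07). Hoxa4 and Hoxb4 were at -0.96 (SE 0.15) and -0.59 (SE 0.09). Neighbouring Hox genes can share or overlap transcripts, and counting without strand could mix them. Of 49 other positional and lineage factors 14 were lower (28.6%, against 9.07% of all genes). Higher were 4 (8.16%, below the 9.75% of all genes), namely Tbx15, Tbx4, En1 and Osr2, chosen after their values were seen. The lower count was 7 without Vhl Cre replicate 3 and 8 without Vhl/Rassf1a Cre replicate 2 or Vhl/Rassf1a Cre replicate 3. Over all genes, lower calls were 1115 to 1239 with 1 of the 6 libraries left out, against 1503. Foxd1, a factor of kidney stroma and limb mesenchyme, stood at 15.7, 15.4 and 19.2 against 7.84, 7.67 and 7.31 CPM (-1.14, SE 0.12), and at -1.48 between GFP libraries. Msx2, a limb and skull factor, was at -0.89 (SE 0.11), Foxc1, a mesoderm factor, at -0.72 (SE 0.09), and Pax1, a factor of the early vertebral column, at -0.70 (SE 0.12).

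In the TGF-beta, BMP and Wnt lists more genes were called lower than higher. Of 32 genes of TGF-beta and BMP signalling 12 were lower (37.5%, against 9.07% of all genes) and 2 higher (6.25%, against 9.75%), the latter Tgfbr3 and Gdf10. Bmp4, a ligand, was at 150.2, 158 and 150.5 CPM in Vhl Cre and 107, 113 and 111 in Vhl/Rassf1a Cre (log2 fold change -0.47, SE 0.07, adjusted p = 1.90e-05). The co-receptor Tgfbr3 was at 26.0, 23.4 and 24.5 against 33.8, 33.3 and 34.6 CPM (0.46, SE 0.06) and was called lower between GFP libraries (-0.19, SE 0.06). Of 27 Wnt ligands and antagonists 9 were lower (33.3%) and 2 higher (7.41%; Dkk2 and Wnt4). The antagonist Sfrp2 stood at 28.7, 33.3 and 34.1 against 13.6, 15.7 and 14.0 CPM (-1.15, SE 0.14), with 10.6, 13.4 and 9.76 and 12.8, 14.9 and 11.2 in the GFP libraries. Its relative Sfrp1 was at -0.43 with Cre and -1.24 with GFP. The Dickkopf antagonists went apart, Dkk2 at 0.50 (SE 0.07) and Dkk3 at -0.36 (SE 0.06).

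Insulin-like growth factors and their carriers held some of the lowest values. Igfbp2, a carrier protein in blood and tissue, stood at 464, 472 and 489 CPM in Vhl Cre and 122, 124 and 127 in Vhl/Rassf1a Cre (log2 fold change -1.94, SE 0.09, adjusted p = 8.59e-13). In the GFP libraries it was at 380.2, 428 and 419 against 72.4, 102 and 78.0. Igf1, the growth factor, was at -0.94 (SE 0.15) and Igfbp3 at -0.61 (SE 0.08). These 3 were the lower ones of 14 genes (21.4%, against 9.07% of all genes), and 7 were higher (50%, against 9.75%). H19, an imprinted RNA next to Igf2, was at 789, 745 and 768 against 615, 635 and 603 CPM (0.31, SE 0.04), and at 0.00 (adjusted p = 0.983) between GFP libraries. Among receptor tyrosine kinases Pdgfra stood at 108, 106 and 113 against 58.6, 56.8 and 53.5 CPM (0.95, SE 0.09) and Met, the receptor of hepatocyte growth factor, at 0.64 (SE 0.08). Pdgfrb was lower, at -0.37 (SE 0.06). Over 35 genes of that list 8 were higher (22.9%) and 9 lower (25.7%), or 4 lower without Vhl Cre replicate 2.

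Matrix genes went both ways. Of 31 collagens and matrix proteins 9 were higher and 9 lower (29.0% each, against 9.75% and 9.07% of all genes), with a median of 0.00. Fbln1, which binds elastic fibres and basement membranes, stood at 49.8, 43.6 and 50.9 CPM in Vhl/Rassf1a Cre and 18.5, 19.2 and 21.5 in Vhl Cre (log2 fold change 1.29, SE 0.08, adjusted p = 4.52e-11). Fn1, fibronectin, was at 13917, 13145 and 14600.0 against 20825, 21998 and 21615 CPM (-0.63, SE 0.05). Sparc, a collagen-binding glycoprotein, and Col14a1, a collagen on the surface of fibrils, were at -0.49 (SE 0.04) and -1.11 (SE 0.11). Between GFP libraries 2 of the 31 were higher and 18 lower (13.2% and 13.6% of all genes), and the difference of Cre effects was called above 0 in 15 and below 0 in 1 (3.44% and 2.65% of all genes). Without Vhl/Rassf1a GFP replicate 2 these were 2 and 19, and 18 and 1. Of 23 matrix proteases and inhibitors 4 were higher (Plau, Plat, Ctsk and Mmp3, chosen after their values were seen) and 10 lower, which is 17.4% and 43.5%. Over 16 cartilage and bone markers the summed level was 1068 to 1160 CPM in Vhl Cre and 798 to 853 in Vhl/Rassf1a Cre, with none at 0, and its part in these results was not tested. The metalloproteinase inhibitors Timp1, Timp2 and Timp3 were at -0.43, -0.41 and -0.51 (SE 0.04, 0.03 and 0.05), and the protease Adamts1 at 225, 231 and 211 against 325, 335 and 339 CPM (-0.58, SE 0.05).

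More contractile genes were called higher than lower, and the fast muscle myosins Myh1 and Myh2 were lower. Of 20 contractile genes 12 were higher (60.0%, against 9.75% of all genes). The count was 8 without Vhl Cre replicate 1 and 9 to 11 without any other of the 6 libraries. Lower were 2 (10.0%, near the 9.07% of all genes; Des and Myh11; 1 without Vhl Cre replicate 2, Vhl Cre replicate 3, Vhl/Rassf1a Cre replicate 1 or Vhl/Rassf1a Cre replicate 2). The counts were 14 higher and 1 lower between GFP libraries, or 10 and 1 without Vhl/Rassf1a GFP replicate 2. In Rassf1a Cre against WT Cre the direction was the other way. There 0 of the 20 were higher and 9 lower (7.09% and 5.3% of all genes), with a median of -0.14. Tagln2, an actin-binding protein, stood at 547, 519 and 543 against 345, 381 and 354 CPM (log2 fold change 0.57, SE 0.05, adjusted p = 4.79e-09). Vcl, vinculin of focal adhesions, and Acta2, smooth muscle actin, were at 0.39 (SE 0.05) and 0.31 (SE 0.06). The myosin heavy chain Myh2 stood at 28.3, 32.5 and 34.6 CPM in Vhl Cre and 9.54, 10.6 and 9.46 in Vhl/Rassf1a Cre (log2 fold change -1.69, SE 0.08, adjusted p = 9.53e-13), against 5.78 to 6.66 in the GFP libraries of both genotypes. Its neighbour Myh1 was at 30.5, 32.9 and 34.7 against 11.3, 14.0 and 13.2 CPM (-1.35, SE 0.11). Myh1 and Myh2 are close copies that lie side by side, so reads could be split between them. Desmin, Des, was at -0.60 (SE 0.10) and skeletal actin, Acta1, at 0.30 (SE 0.10, adjusted p = 0.0359), a call lost without any 1 of 5 of the 6 libraries. Over 14 skeletal muscle markers, of which 6 were tested, the summed level was 384 to 463 CPM in Vhl Cre and 469 to 493 in Vhl/Rassf1a Cre, with Myf5 at 0 in both groups. Acta1 made up most of that sum, with means of 340 and 419 CPM, while Des, also in it, had 83.5 and 54.9. The part of muscle cells in the myosin difference was not tested.

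Of 17 genes of MHC class I and II presentation 0 were higher and 7 lower (41.2%, against 9.07% of all genes). The lower count was 4 without Vhl Cre replicate 3, Vhl/Rassf1a Cre replicate 1 or Vhl/Rassf1a Cre replicate 2. Between GFP libraries 0 were higher and 4 lower (13.6% of all genes lower), or 0 and 10 without Vhl/Rassf1a GFP replicate 2. B2m, the light chain of class I, stood at 636, 579.8 and 584 against 435, 445 and 489.5 CPM (-0.39, SE 0.06), and the class II chain H2-Ab1 at 42.6, 45.1 and 46.0 against 28.8, 29.1 and 31.4 (-0.58, SE 0.12). Over 15 macrophage and blood markers the summed level was 5.71 to 6.08 CPM in Vhl Cre and 6.35 to 7.38 in Vhl/Rassf1a Cre, with 7 at 0 in both groups, Adgre1, C1qa, C1qc and Tyrobp among them. H2-Aa, the partner chain of H2-Ab1, was at 1.19, 1.22 and 1.58 against 0.208, 0.287 and 0.148 CPM (-2.65, SE 0.37). Of 34 interferon-stimulated genes 2 were lower (5.88%, below the 9.07% of all genes), Bst2 at 67.0, 62.1 and 63.5 against 25.6, 26.9 and 45.1 CPM (-0.98, SE 0.25) and Igtp at -0.82 (SE 0.27, adjusted p = 0.0357). Vhl/Rassf1a Cre replicate 3 was the highest of its group for both. Without it 14 of the 34 were lower, and without Vhl Cre replicate 1, Vhl Cre replicate 3, Vhl/Rassf1a Cre replicate 1 or Vhl/Rassf1a Cre replicate 2 it was 1. Between GFP libraries 0 of the 34 were higher and 1 lower (13.6% of all genes lower), or 0 and 13 without Vhl/Rassf1a GFP replicate 2. In Rassf1a Cre against WT Cre 25 of the 34 were higher (against 7.09% of all genes) and 0 lower. Ifi202b and Ifi203, interferon-inducible genes of a family with near copies, were higher, with and without Cre. Between the Cre libraries Ifi202b stood at 57.0, 61.8 and 71.5 against 2.28, 2.06 and 1.67 CPM. Ifi203 stood at 16.6, 16.9 and 27.0 against 8.52, 5.40 and 5.35. Ifi202b was at 0 CPM in every WT library. Both genes were also called higher between GFP libraries (log2 fold change 5.98 and 1.41) and in Rassf1a Cre against WT Cre (8.62 and 0.89). The 8.62 of Ifi202b (SE 0.71) rests on only 1.34, 1.13 and 1.25 CPM in Rassf1a Cre against 0. Those levels lie below the values in Vhl Cre and far below those in Vhl/Rassf1a Cre. Their values are uncertain where reads fit several members of that family.

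Among secreted inflammatory factors Cxcl12, which draws blood cell precursors, stood at 454, 463 and 471 CPM in Vhl Cre and 261, 257 and 243 in Vhl/Rassf1a Cre (log2 fold change -0.87, SE 0.05, adjusted p = 1.21e-11). Cxcl5, which draws neutrophils, went the other way, at 16.8, 19.0 and 15.9 against 8.47, 6.95 and 6.93 CPM (1.21, SE 0.14), with 23.6 to 36.3 CPM in the GFP libraries of both genotypes. Csf1, a growth factor of macrophages, was at -0.38 (SE 0.06) and Ccl2, which draws monocytes, at 0.25 (SE 0.06). In all 6 of 23 were higher (26.1%, against 9.75% of all genes) and 5 lower (21.7%, against 9.07%). These were 10 higher with only the groups compared, 3 higher without Vhl Cre replicate 2 or Vhl/Rassf1a Cre replicate 3, and 3 lower without Vhl Cre replicate 2 or Vhl/Rassf1a Cre replicate 1.

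Hippo signalling holds Rassf1a's known partners. Of 25 genes of the Hippo core and the Rassf family 3 were higher (Tead1, Rassf6 and Rassf2) and 4 lower (Rassf9, Rassf3, Lats2 and Wwc2); Tead1, Lats2 and Wwc2 were chosen after their values were seen. These are 12.0% and 16.0%, near the 9.75% and 9.07% of all genes. The higher count was 6 with only the groups compared or with GC-corrected offsets, 5 with DESeq2, and 1 without Vhl Cre replicate 3 or Vhl/Rassf1a Cre replicate 1. The lower count was 2 without the filter, Vhl Cre replicate 2, Vhl Cre replicate 3, Vhl/Rassf1a Cre replicate 2 or Vhl/Rassf1a Cre replicate 3. The relatives of Rassf1 moved apart. Rassf9 stood at 4.26, 3.67 and 4.34 CPM in Vhl Cre and 1.42, 1.84 and 1.86 in Vhl/Rassf1a Cre (-1.27, SE 0.16), and -1.45 between GFP libraries. Rassf2 was at 18.2, 18.0 and 16.3 against 12.6, 12.0 and 11.9 CPM (0.53, SE 0.08), Rassf3 at -0.27 (SE 0.05) and Rassf6 at 0.43 (SE 0.13, adjusted p = 0.0187). Of 22 targets of YAP, the factor that Hippo kinases restrain, 9 were lower (40.9%, against 9.07%) and 1 higher, with a median of -0.09. Ccn2, a matrix-bound growth factor, stood at 1407, 1352 and 1362 against 946, 996 and 937 CPM (log2 fold change -0.52, SE 0.07, adjusted p = 6.98e-06). Between GFP libraries it did not pass (-0.01, adjusted p = 0.923). Crim1, a membrane protein that binds BMPs, was at -0.39 (SE 0.05). The higher member was Nt5e, the enzyme that makes adenosine outside cells, at 11.0, 10.8 and 11.7 against 5.93, 5.40 and 5.96 CPM (0.96, SE 0.11). Ccn2, Crim1 and Nt5e kept these directions in Rassf1a Cre against WT Cre, at -0.78, -0.38 and 0.87 (adjusted p = 2.80e-08, 1.65e-05 and 3.93e-06). Their means without Cre were 466, 193 and 11.5 CPM in Rassf1a GFP and 886, 284 and 5.26 in WT GFP. Igfbp3, also on this list and lower at -0.61, was at 0.24 in Rassf1a Cre against WT Cre and did not pass. Between GFP libraries 6 of the 22 were higher and 5 lower (13.2% and 13.6% of all genes). In Rassf1a Cre against WT Cre 2 were higher and 6 lower (7.09% and 5.3% of all genes).

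Of 24 cholesterol synthesis genes 11 were higher (45.8%, against 9.75% of all genes) and 1 lower (4.17%, against 9.07%; Hsd17b7, chosen after its values were seen; 0 without Vhl Cre replicate 2 or Vhl/Rassf1a Cre replicate 3), against 12 and 1 between GFP libraries. Nsdhl, a sterol enzyme, was at 59.6, 61.0 and 58.7 against 47.2, 46.3 and 44.6 CPM (0.38, SE 0.05). Of 23 NRF2 targets, genes of the oxidant defence, 10 were higher (43.5%) and 2 lower (8.7%; Hmox1 and Txnrd1, chosen after their values were seen). The lower count was 1 without Vhl Cre replicate 2, Vhl/Rassf1a Cre replicate 1 or Vhl/Rassf1a Cre replicate 2, and 0 without Vhl Cre replicate 3 or Vhl/Rassf1a Cre replicate 3. Slc7a11, the cystine importer, stood at 31.8, 33.4 and 27.1 against 18.4, 13.8 and 19.0 CPM (0.85, SE 0.11), and Srxn1, a reductase of peroxiredoxins, at 0.34 (SE 0.05). Of 22 immediate early genes, which respond within minutes to growth signals, 8 were higher (36.4%) and 0 lower. Egr1 was at 63.7, 56.1 and 63.9 against 44.8, 44.1 and 48.2 CPM (0.42, SE 0.07) and Nr4a2 at 0.50 (SE 0.07). Between GFP libraries 11 of the 22 were higher and 1 lower (13.2% and 13.6% of all genes). In Rassf1a Cre against WT Cre 1 was higher and 7 lower (7.09% and 5.3% of all genes). The stress protein Nupr1 was at 95.7, 104 and 97.2 CPM in Vhl Cre against 52.9, 57.6 and 60.8 (-0.79, SE 0.08).

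Many of the largest single changes were in genes outside these lists. With a mean of at least 5 CPM, the highest with distinct sequence was Ptprv, a receptor phosphatase gene, at 31.1, 30.7 and 33.1 against 5.25, 5.50 and 5.98 CPM (log2 fold change 2.51, SE 0.11, adjusted p = 2.54e-13). Ucp2, a carrier of the inner mitochondrial membrane, stood at 27.5, 26.8 and 27.7 against 5.55, 6.25 and 5.67 CPM (2.23, SE 0.10). Vwa1, a matrix protein near cartilage and nerve cells, was at 9.67, 9.53 and 11.8 against 1.85, 2.55 and 2.53 CPM (2.16, SE 0.15), with 0.898 to 1.41 CPM in the GFP libraries of both genotypes, where it was not called (-0.41, adjusted p = 0.15). Slc1a3, a glutamate transporter, Crabp1, which binds retinoic acid, and Kank4, which links to focal adhesions, were at 1.49 (SE 0.12), 1.45 (SE 0.11) and 1.35 (SE 0.11). At the low end Rgs5, a brake on G protein signals and a pericyte marker, stood at 75.5, 70.0 and 69.9 CPM in Vhl Cre and 21.3, 23.0 and 20.5 in Vhl/Rassf1a Cre (-1.74, SE 0.11), with the same value between GFP libraries (-1.74). Cd59a, a guard against complement, was at -1.63 (SE 0.09), Smpd3, a sphingomyelinase, at -1.59 (SE 0.13), and Fndc1, a matrix-associated protein, at -1.62 (SE 0.11).

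Among genes named by that rule, those with near-identical copies had the extreme values and are uncertain, since reads could be assigned to either copy. Rps3a3, a copy of a ribosomal protein gene, stood at 52.6, 51.2 and 47.0 CPM in Vhl Cre and 0.699, 1.15 and 0.993 in Vhl/Rassf1a Cre (-5.76, SE 0.16), with -6.15 between GFP libraries and -0.32 (adjusted p = 0.466) in Rassf1a Cre against WT Cre. Rpl29, a ribosomal protein gene on chromosome 9, stood at 229.7, 264 and 259 against 25.4, 26.6 and 24.0 CPM, a log2 fold change of -3.31 (SE 0.11), and at -3.31 and -3.32 in the other 2 comparisons. Rpl15-ps2, a pseudogene of the same chromosome, stood at 14.7, 13.7 and 12.0 against 0.178, 0.327 and 0.316 CPM (5.60, SE 0.24), and at 5.27 and 5.01. Both genes of chromosome 9 thus split all libraries of these comparisons by the Rassf1a name, with or without Cre.

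Position on the chromosome was examined for that reason. Within 1 Mb of Rassf1, 15 of 64 tested genes were called (23.4%, against 18.8% of all), 9 higher and 6 lower. The count was 24 with only the groups compared and 28 with GC-corrected offsets, where calls over all genes were 4754 and 4676, against 3119. Near Vhl, on chromosome 6, it was 4 of 29 (13.8%). Genes called in the same direction in all 3 comparisons that share no library (Vhl/Rassf1a Cre against Vhl Cre, the GFP pair, and Rassf1a Cre against WT Cre) numbered 344, or 2.08% of those tested. They made up 5.63% of tested genes on chromosome 9 (53 of 941), 5.8% on chromosome 14 and 3.26% on chromosome 1, and at most 2.36% on the other autosomes. On chromosome 9 the share was 15.7% in the 10 Mb before the start of Rassf1 (13 of 83) and 2.42% in the 10 Mb after it (3 of 124). Farther off it was 11.9% from -20 to -10 Mb, 9.43% from -30 to -20 Mb and 11.2% from -70 to -60 Mb. In the 10 Mb stretches from -60 to -30 Mb it was 3.12% to 6.19%, and in those beyond -70 Mb 0.0% to 2.44%. Mapkapk3, a kinase below p38, whose start lies at -262 kb from that of Rassf1, stood at 45.7, 49.5 and 46.0 CPM in Vhl Cre and 30.1, 28.5 and 28.0 in Vhl/Rassf1a Cre (-0.71, SE 0.05), at -0.74 with GFP and at -0.93 in Rassf1a Cre against WT Cre. Hemk1, a methyltransferase gene at -213 kb, was at 0.68, 0.71 and 0.84 in the same order. The altered allele and sequence inherited along with it cannot be told apart here.

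**Figure D4:**
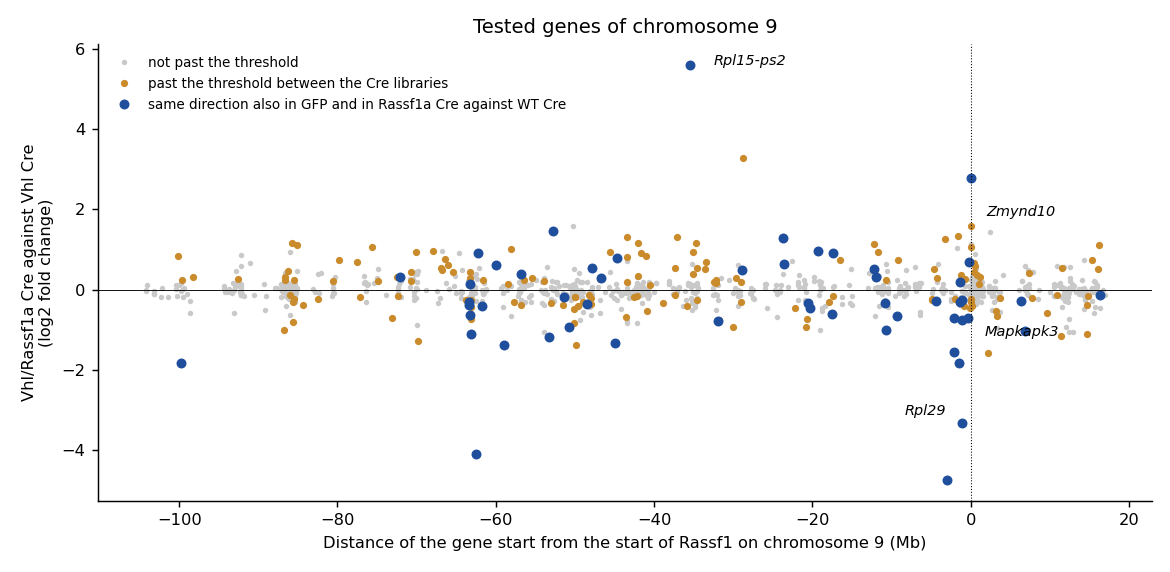
Log2 fold change between the Cre libraries for the 941 tested genes of chromosome 9 against the distance of their start from that of Rassf1 (Mb). Grey points were not called, ochre points were called, and blue points were called in the same direction in all 3 comparisons, which holds for 15.7% of genes in the 10 Mb before Rassf1 and 2.08% of all genes tested.

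Genes of the sex chromosomes differed between the genotypes. The summed level of the 8 tested genes of chromosome Y was 124 to 134 CPM in Vhl Cre and 48.6 to 51.5 in Vhl/Rassf1a Cre. Without Cre, Vhl cells held 90.5 to 96.2 CPM and Vhl/Rassf1a cells 42.0 to 50.7. WT Cre held 113 to 130 CPM and Rassf1a Cre 56.9 to 61.1, with 113 to 124 in WT GFP and 49.1 to 66.7 in Rassf1a GFP. Rassf1a Cre against WT Cre thus differed in the same direction. Eif2s3y, a translation factor subunit, stood at 33.5, 30.6 and 28.6 against 9.54, 8.93 and 9.63 CPM (log2 fold change -1.72, SE 0.13, adjusted p = 2.40e-09). Uty, Ddx3y and Kdm5d were at -1.70, -1.57 and -1.10. Xist, the RNA that silences one X chromosome in female cells, chosen after its values were seen, was at 343, 312 and 302 against 196, 144 and 173 CPM (0.90, SE 0.18). Every library held both Y-linked and Xist reads. The part of this difference in the other results was not tested.

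Set against the GFP pair, which shares no library with it, the Cre comparison had many calls in common. Between Vhl/Rassf1a GFP and Vhl GFP 4450 genes were called (26.9%), or 4732 without Vhl/Rassf1a GFP replicate 2. Of the 3119 genes called between Cre libraries 1887 were called in the same direction there, which is 60.5% of the Cre calls and 42.4% of the GFP calls, and 75 in the opposite direction. Another 1157 (37.1%) were called with Cre alone, which is not a test that they differ. With Rassf1a Cre against WT Cre (2054 called, 12.4%) 546 calls were shared in direction, 17.5% of the former and 26.6% of the latter, and 339 were opposite. Slc39a2, a zinc transporter, and Slco4a1, an organic anion transporter, were called higher in all 3, at 1.44, 2.00 and 5.58 and at 1.13, 1.94 and 2.16. Nnmt, a nicotinamide methyltransferase, and Arhgap36, a regulator of Hedgehog signals, were lower in all 3, at -1.39, -1.06 and -2.11 and at -1.03, -0.75 and -1.18. Agtr2, an angiotensin receptor, was higher with Cre (1.32, SE 0.24) and in Rassf1a Cre against WT Cre (1.05, SE 0.22), and was at 0.22 (adjusted p = 0.545) between GFP libraries. Its Cre effect in Vhl/Rassf1a cells minus that in Vhl cells was 1.10 (SE 0.34, adjusted p = 0.057), which did not pass. Its means were 17.0 CPM in Rassf1a GFP and 5.74 in WT GFP, against 18.1 in Rassf1a Cre and 8.78 in WT Cre.

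**Figure D5:**
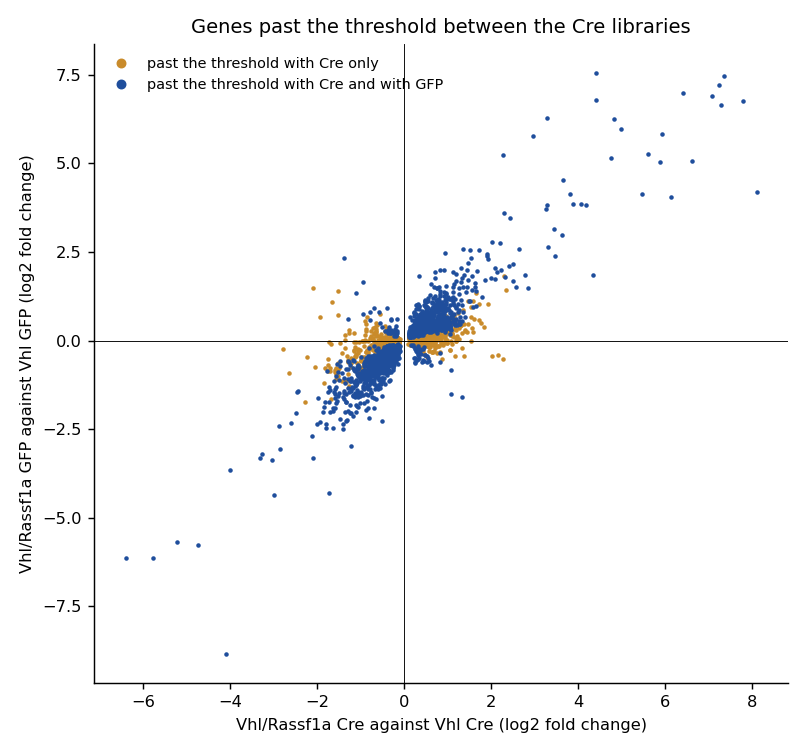
The 3119 genes called between the Cre libraries, by their log2 fold change there (horizontal) and between the GFP libraries of the same genotypes (vertical), which are other libraries. Blue points, called in both, lie mostly in the lower left and upper right corners, with 1887 in the same and 75 in opposite directions.

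Some genes were far higher in GFP than in Cre libraries, and also differed between the GFP groups. Eml5, chosen after its values were seen, was at 39.5, 42.8 and 36.5 CPM in Vhl GFP and 66.7, 85.7 and 66.7 in Vhl/Rassf1a GFP, against 3.88 to 5.69 in the 6 Cre libraries (0.88 between the GFP groups, SE 0.13). Mkrn2, chosen the same way, was at 55.8, 54.4 and 49.3 and 82.7, 119 and 80.7 CPM, against 12.3 to 13.4 (0.82, SE 0.11). The Cre effect in Vhl/Rassf1a cells minus that in Vhl cells, which rests on these GFP libraries, was called for 1010 genes (6.09%), 570 above 0 and 440 below. It was 1191 without Vhl/Rassf1a GFP replicate 2 and 2263 with GC-corrected offsets.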

How the data were processed

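RNA was sequenced from 24 libraries, 3 in each of 8 groups. The authors deposited raw counts per gene and library, which they made with Trimmomatic 0.38 and STAR 2.5.2b on GRCm38, per the submitters' processing notes. Per the labels' protocols, NucleoSpin RNA and TruSeq Stranded kits were used. The tool, strand setting and annotation of the counting step were not given in the sources used here. Gene identifiers were named from GENCODE M21 for GRCm38, and promoter sequences are from RefSeq (GRCm38.p6).

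The deposited counts were tested with edgeR 4.0.16 (quasi-likelihood F test, two-sided) in one fit of all 24 libraries with 1 mean per group and 16 residual degrees of freedom. filterByExpr (minimum count 10, total 15) kept 16573 genes, library sizes were scaled by TMM, and p-values were adjusted over all of them by Benjamini-Hochberg with a threshold of 0.05. The biological coefficient of variation was 7.73%. CPM values use the TMM-scaled library sizes. Limits by depth concern genes of a few counts, such as Zmynd10. The fit was tested on simulated data. Other tools were R 4.3.3, limma 3.58.1, DESeq2 1.42.0 (an alternative) and Python 3.11.15. Alternatives were another normalization, no filter, DESeq2, only the groups compared, a replicate block, GC-corrected offsets and leaving out each library.

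Gene lists and their members, the naming rule and the tests were chosen with earlier results of these data known. Named genes are Vhl, Rassf1 and Zmynd10; the 12 highest and 12 lowest called genes with a mean of at least 5 CPM, no overlap of the 6 values and a proper symbol; up to 4 called members per list, by smallest adjusted p; the 6 highest and 6 lowest whose Cre effects also differed; the 6 per direction shared with Rassf1a Cre against WT Cre; and called genes within 1 Mb of Rassf1 or Vhl. Some genes that this rule names are not reported here.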

Additional observations from a re-analysis of the deposited data

Results flagged for a closer look

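Among the 114 genes given with values above, 39 had a Cre effect that differed between Vhl/Rassf1a and Vhl cells in edgeR's test of that difference (adjusted p under 0.05, 3 libraries in each of the 4 groups). Over all genes tested 6.09% were called. Some of the 114 were named because they passed this same test, so the count was partly set by the naming rule and is no result about these genes. The values in brackets are the Cre effect in Vhl/Rassf1a cells minus that in Vhl cells, on the log2 scale. In 25 genes it was above 0: Vwa1 (2.57), Cxcl5 (1.15), Fbln1 (0.83), Ptprv (0.82), Sfrp1 (0.81), Ccnb2 (0.78), Igfbp3 (0.75), Col14a1 (0.69), Rassf2 (0.68), Tgfbr3 (0.66), Nt5e (0.63), Ttk (0.61), Cenpa (0.58), Timp3 (0.57), Btg2 (0.57), Prc1 (0.57), Angptl4 (0.55), Fanci (0.55), Arnt2 (0.51), Pdgfra (0.49), Anln (0.41), Dkk3 (0.33), Cxcl12 (0.33), H19 (0.31) and Mdm2 (0.25). In 14 it was below 0: Myh2 (-1.59), Myh1 (-1.52), Sfrp2 (-1.37), Kank4 (-1.23), Ifi202b (-1.0), Slco4a1 (-0.80), Mkrn2 (-0.78), Acta1 (-0.70), Car12 (-0.62), Slc39a2 (-0.56), Adamts1 (-0.53), Ccn2 (-0.51), Pfkp (-0.27) and Crim1 (-0.25). These values share the 6 Cre libraries with the comparison of the report and include Vhl/Rassf1a GFP replicate 2, the library that stood apart. No explanation was tested.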

How the results depend on the processing

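The number of genes called between the Cre libraries ranged from 2971 to 4754 over the alternatives that kept the threshold, against 3119, and from 2417 to 2529 when 1 of its 6 libraries was left out. A fit of only the groups compared gave 4754 for the Cre pair, 2273 for the GFP pair, 637 for the difference of Cre effects, 831 calls shared in direction with Rassf1a Cre against WT Cre and 104 genes near Rassf1 or Vhl. GC-corrected offsets gave 2263 for the difference of Cre effects, 3289 for Rassf1a Cre against WT Cre, 2945 and 859 for the calls shared with the GFP pair and with Rassf1a Cre against WT Cre, and 104 near Rassf1 or Vhl. A log2 fold change of at least 1 left 418. The cause of these shifts was not tested.

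With 1 library left out, calls ranged from 3619 to 4732 for the GFP pair, 705 to 1191 for the difference of Cre effects, 1409 to 1651 for Rassf1a Cre against WT Cre, 1531 to 2166 and 431 to 472 for the shared calls, 312 to 326 for list members and 49 to 58 near Rassf1 or Vhl. Replicate numbers did not pair the samples, since the deviations of same-numbered Cre libraries correlated at -0.0474, 0.0321 and -0.134. With the number as a replicate block 2971 genes were called between the Cre libraries.

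Cholesterol synthesis genes were higher in 19 of 24, immediate early genes in 15 and 14 of 22 and p53 targets in 11 and 15 of 28 with only the groups compared and with GC-corrected offsets, and interferon-stimulated genes were lower in 17 of 34 without a filter and 8 with only the groups compared. Over all genes, calls were 4754 with only the groups compared, 4676 with GC-corrected offsets and 2971 without a filter, against 3119. List counts given above for these settings stand beside the same totals. Of 114 genes given with values, 106 kept call and direction in every alternative and none reversed. The naming rule used values of the same 6 libraries, so this share cannot be carried over to all genes tested. Ldha was lost without any 1 of 4 libraries, Hk2 without Vhl Cre replicate 3 (adjusted p = 0.0514, edgeR) or the filter, Pfkp without Vhl Cre replicate 2, Vhl/Rassf1a Cre replicate 2 or the filter, and Rassf6 and Igtp without any 1 of 4.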
